A study of Mus musculus with 12 samples.

Results

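Growth factors and wound-repair matrix proteins are described here in mouse bone marrow-derived macrophages (BMDMs) as 10 genes chosen by symbol: Hbegf, Edn1, Vegfa, Pdgfa, Pdgfb, Igf1, Thbs1, Fn1, F13a1 and Plaur. Each had exactly 1 row among the 23847 rows of the expression tables, and all 10 reached 1 FPKM or more in 1 sample or more, the filter that 11191 rows passed. FPKM (fragments per kilobase of transcript, scaled for the fragments mapped in the sample) is a level per transcript length, so levels of different genes can be set side by side. All 10 are protein-coding genes, and their positions are given below in mm10 as the tables list them. The question addressed is how the mRNA of these genes responded to IL-4, to LPS, and to LPS given after IL-4.

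All 12 samples were BMDMs of wild-type (Wt) mice aged 8-12 weeks, matured for 6 days with L929 supernatant as the source of M-CSF. The control cells received neither agent, the IL-4 cells received the cytokine IL-4 at 20 ng/ml for 24 h, the LPS cells received bacterial lipopolysaccharide at 100 ng/ml for 3 h, and the IL-4+LPS cells received the first and then the second, with 3 samples in each group. LPS was therefore measured as an early response and IL-4 as a late one. The cells were grown in culture from precursors and are not macrophages of a wound.

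Macrophages at a wound clear debris and also release growth factors that act on the epithelium, vessels and fibroblasts around them. Some of these factors are made as membrane-bound precursors that a protease must shed, some bind to matrix, and others are held by binding proteins. Fibronectin, thrombospondin-1 and the fibrin cross-linking factor XIII belong to the provisional matrix that fills a wound, and the urokinase receptor gathers the protease activity that later remodels it. IL-4 drives the alternative activation of macrophages often linked with repair, and LPS drives the inflammatory one.

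The treatments acted on their usual marker genes. Retnla, an IL-4 target, stood between 11620 and 13030 FPKM in IL-4 and between 5.91 and 19.5 FPKM in the controls. Tnf, an LPS target, stood between 1313 and 1416 FPKM in LPS and between 11.8 and 19.0 FPKM in the controls. All 6 macrophage markers were present in every sample. Their summed level was 19158 to 20531 FPKM in the controls and 15380 to 16609 FPKM in LPS. It was 7556 to 7770 FPKM in IL-4 and 6551 to 6935 FPKM in IL-4+LPS. Most of the sum was Lyz2, with a mean of 16120 FPKM in the controls and 4873 FPKM in IL-4. The study reports Lyz2 as a gene repressed by IL-4, so the sum does not measure the share of macrophages. With IL-4, 5 of the 6 were called lower (Lyz2 by -1.73, Mertk by -1.40 and Emr1 by -1.14 among them), while Cd68 was not. By contrast, all 8 fibroblast markers and all 5 lymphocyte markers stayed below 1 FPKM in every sample. Of 7 endothelial markers 5 stayed below 1 FPKM, as did 4 of 7 platelet and megakaryocyte markers. Of 7 neutrophil markers 6 were in the tables and detected, with a summed level of 198 to 547 FPKM in the controls, 119 to 240 FPKM in IL-4, 278 to 650 FPKM in LPS and 222 to 503 FPKM in IL-4+LPS. Ltf (-1.23) and Ngp (-1.41) were called lower with IL-4 and the other 4 were not, and the call of Ngp was lost in 4 of the 12 fits that left out 1 sample (those without control replicates 2 or 3 or IL-4 replicates 1 or 3, adjusted p up to 0.0909). Over all rows tested, 21.0% were called lower with IL-4. FPKM totals lay between 457583 and 495025 per sample and the relative depth, read from the low values with control replicate 1 set to 1, between 0.991 and 3.30, with the 4 samples of replicate 1 at or near the low end. Replicate 1 stood apart from replicates 2 and 3 for several of the 10 genes, and this is given below.

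**Figure D1:**
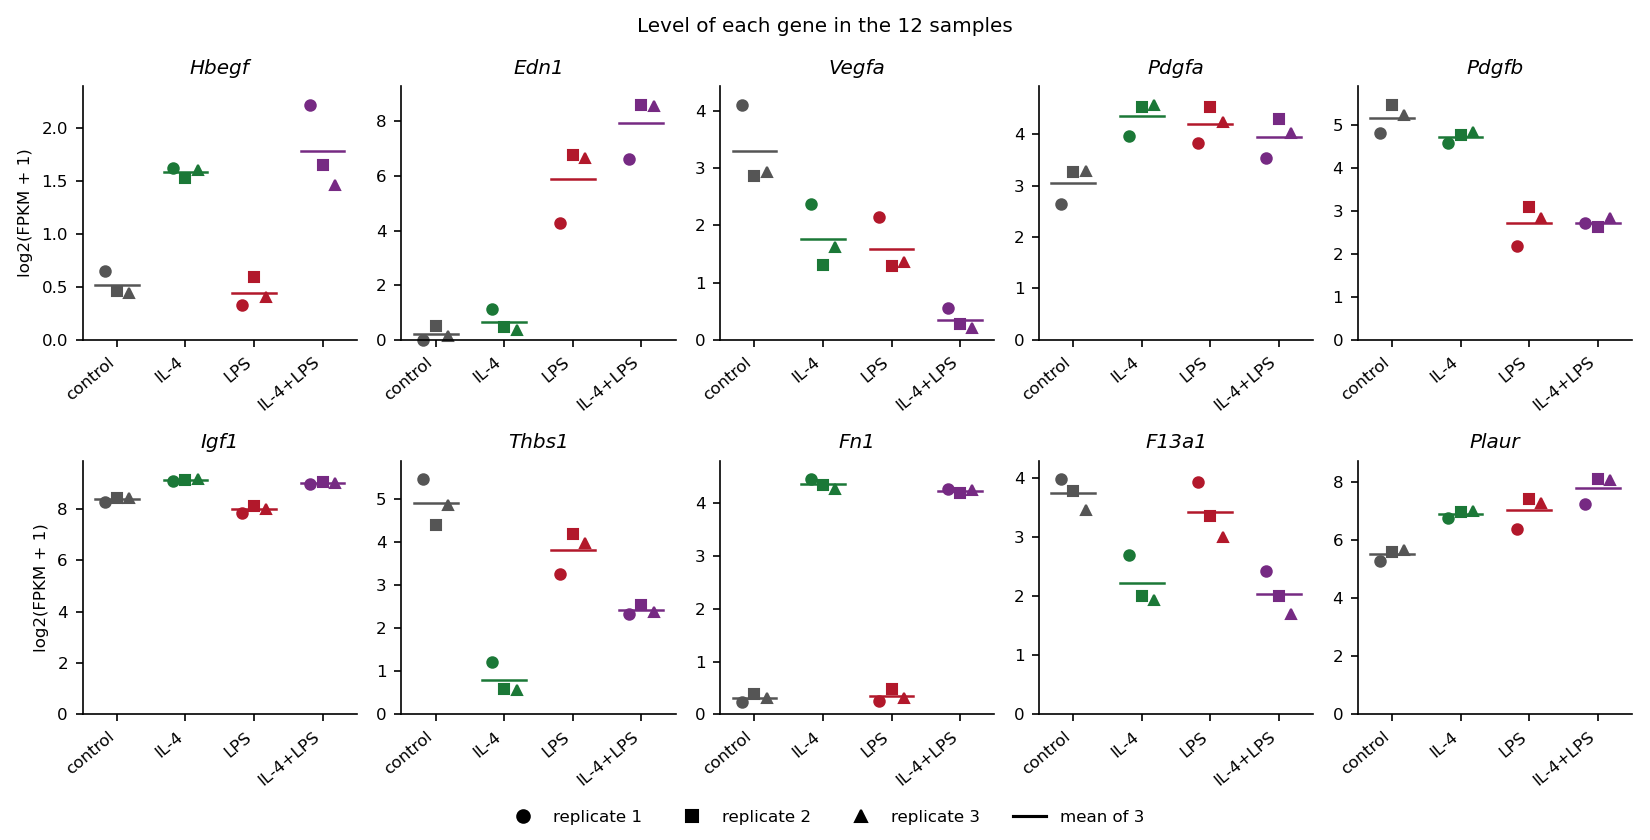
Each panel plots log2(FPKM + 1) of 1 gene (vertical axis, starting at 0) in the 4 groups (horizontal axis), with a symbol for each replicate and a line at the mean of 3. Fn1 and Hbegf separate by IL-4, Edn1 and Pdgfb by LPS, and Vegfa is lowest where both agents were given.

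The 10 genes did not respond as a block. Changes were estimated with limma on log2(FPKM + 1) over all 12 samples, so every log2 fold change below is on that scale, where the pseudocount shrinks the changes of weakly expressed genes. A gene was called when the Benjamini-Hochberg adjusted p, taken over all 11191 rows, was under 0.05. With IL-4 alone, 5 of the 10 genes were higher (Fn1, Plaur, Pdgfa, Hbegf and Igf1), against 16.0% of all rows, and 3 were lower (Thbs1, Vegfa and F13a1), against 21.0% of all rows. Fn1 and Hbegf passed the filter only through samples with IL-4. Their part in this count, and in those of IL-4+LPS against LPS or control, is not independent of the filter. The 10 genes were also chosen with earlier results of these data known, so the counts are descriptive. With LPS alone, 3 were higher (Edn1, Plaur and Pdgfa), against 16.9% of all rows, and 4 were lower (Pdgfb, Vegfa, Thbs1 and Igf1), against 57.7% of all rows, so the share that fell was not above that of the table. When LPS followed IL-4, compared with IL-4 alone, 3 were higher (Edn1, Thbs1 and Plaur), against 15.0% of all rows, and 2 were lower (Pdgfb and Vegfa), against 57.9%. The IL-4+LPS cells differed from the LPS cells in 4 genes that were higher (Fn1, Edn1, Hbegf and Igf1), against 15.0% of all rows, and in 3 that were lower (Thbs1, F13a1 and Vegfa), against 15.8%. Between IL-4+LPS and control all 10 differed, 6 higher and 4 lower, where 74.3% of all rows were called in either direction. Between LPS and IL-4, 7 differed, where 73.7% of all rows did. In 2 of the 10 genes the LPS response itself differed with and without IL-4. The difference was positive for Thbs1 and negative for Pdgfa, against 4.58% of all rows called higher and 4.63% called lower in that test.

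LPS moved the whole table downward on this scale. The median over all rows was -0.44 for LPS minus control and -0.41 for IL-4+LPS minus IL-4, against -0.05 for IL-4 minus control. The medians of the 10 genes in these comparisons were -0.19, -0.11 and 0.60. With median scaling between samples, the all-row medians for LPS became -0.14 and -0.12, and the share of higher genes among the calls rose from 22.6% to 40% without IL-4 and from 20.6% to 39.3% after it. Changes under LPS of about this size, that of Igf1 foremost, are therefore changes relative to the chosen scaling. The values measure RNA of whole cultures, in which fewer expressing cells and less RNA per cell cannot be told apart. No label ties a replicate number to an animal or culture, and the p-values measure the spread between these samples.

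**Figure D2:**
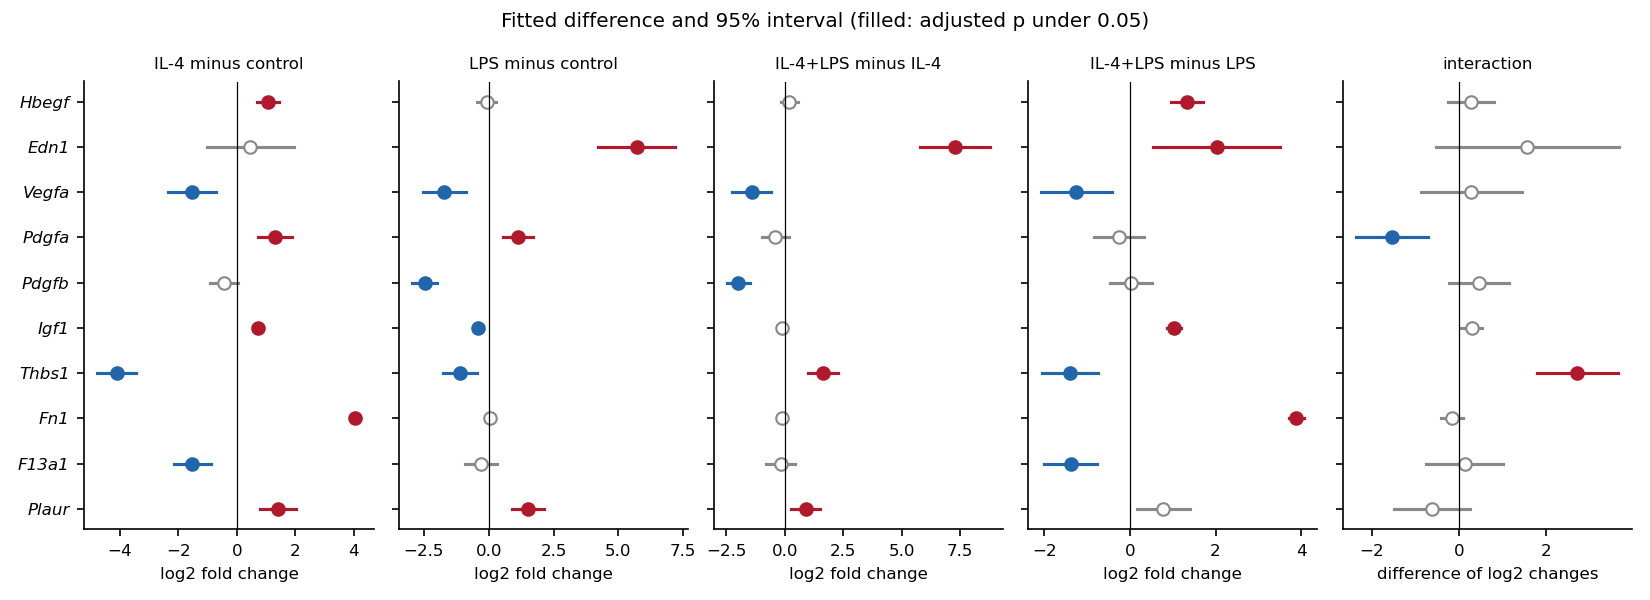
Points give the fitted log2 fold change of each gene in 4 comparisons, and in the last panel the LPS response after IL-4 minus that without it, with bars for the 95% interval. Filled points passed the threshold. Horizontal scales differ between panels, and the interval of Edn1 is the widest in each of them.

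Hbegf (chromosome 18, 36504927 to 36515805, minus strand) encodes a heparin-binding member of the EGF family that is shed from the cell surface and acts on epithelial cells, fibroblasts and smooth muscle. It was a gene of low level that was higher with IL-4, with or without LPS. Its level was 0.574, 0.373 and 0.36 FPKM in the controls, 2.08, 1.90 and 2.05 FPKM in IL-4, 0.26, 0.514 and 0.321 FPKM in LPS, and 3.67, 2.15 and 1.77 FPKM in IL-4+LPS. All 6 samples with IL-4 stood above all 6 without it. The mean ratio of IL-4 to control was 4.61 in FPKM, and that of IL-4+LPS to LPS was 6.93. The log2 fold change of the latter was 1.34 (standard error 0.169, adjusted p = 0.000181). LPS gave no call either without IL-4 (-0.07, 95% interval -0.45 to 0.30) or after it (0.19, 95% interval -0.18 to 0.57). In order of level, LPS and control did not differ beyond their spread, nor did IL-4 and IL-4+LPS. The upper end in IL-4+LPS was replicate 1, and without it the change after IL-4 was -0.03. Under median scaling the change after IL-4 was 0.44 (adjusted p = 0.0414) and under quantile normalization 0.70 (adjusted p = 0.0019), so its call depended on the scaling.

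Edn1 (chromosome 13, 42301270 to 42307989, plus strand) encodes endothelin-1, a vasoconstrictor peptide made from a precursor that also stimulates fibroblasts. It changed most of the 10 genes under LPS. Its level was 0, 0.407 and 0.0943 FPKM in the controls, 1.21, 0.393 and 0.29 FPKM in IL-4, 18.6, 108 and 99.7 FPKM in LPS, and 98.3, 389 and 376 FPKM in IL-4+LPS. The 6 samples with LPS stood above all others, and the LPS and IL-4+LPS groups overlapped, since replicate 1 of IL-4+LPS lay below replicates 2 and 3 of LPS. LPS raised Edn1 by 5.70 (standard error 0.669, adjusted p = 2.1e-05) without IL-4 and by 7.27 (adjusted p = 4.3e-06) after IL-4. IL-4 alone gave 0.46 (95% interval -1.03 to 1.94, adjusted p = 0.635), with no call and with groups that overlapped. The study names Edn1 among the genes that IL-4 activates through STAT6, measured there by RT-qPCR. Here IL-4 alone was measured only at 24 h, at levels near or below 1 FPKM, so an earlier response was not tested. By level, the gene stood above 2.31% of the expressed rows in control and above 97.7% in IL-4+LPS. Endothelial cells are a known source of endothelin-1, and their 7 markers summed to 4.82 to 7.08 FPKM in the controls, 2.81 to 4.85 FPKM in LPS, 19.2 to 22.2 FPKM in IL-4 and 11.5 to 13.8 FPKM in IL-4+LPS. Only Kdr and Vwf passed the filter, and Cdh5, Tek, Tie1, Cldn5 and Emcn were at no more than 0.111 FPKM in any sample.

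Edn1 in IL-4+LPS exceeded its LPS level in each of the 3 replicate numbers, with a mean ratio of 3.82 in FPKM. The log2 fold change was 2.03 (standard error 0.669, adjusted p = 0.0417). That call was lost in 8 of the 12 fits that left out 1 sample, namely without any 1 of the 3 control samples, IL-4 replicates 2 or 3, LPS replicate 1, or IL-4+LPS replicates 2 or 3. Without LPS replicate 1 the estimate was 1.22 (adjusted p = 0.116), and over all left-out samples it ran from 1.22 to 2.68 with an adjusted p of up to 0.137. It was also lost with a pseudocount of 0.1 (adjusted p = 0.088), without the filter (0.0714) and with only these groups in the fit (0.129). Vwf was also higher in IL-4+LPS against LPS (2.01, adjusted p = 2.41e-06) while Kdr was lower (-0.61, adjusted p = 0.0188, lost without LPS replicates 2 or 3 or IL-4+LPS replicate 1 with an adjusted p of up to 0.0749), and their part in the result was not tested. The LPS response of Edn1 after IL-4 exceeded that without it by 1.57 (95% interval -0.53 to 3.67), which did not pass the threshold (adjusted p = 0.364). With replicates 2 and 3 only it was 1.76 and passed (adjusted p = 0.000714). In mean FPKM the ratio of LPS to control was 451 and that of IL-4+LPS to IL-4 was 456. The baselines, 0.167 FPKM in control and 0.632 FPKM in IL-4, lie below the pseudocount of 1, which shrinks the change without IL-4 more.

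Of the promoters in the RefSeq table (GRCm38.p6, 250 bases before each start), 6 of the 10 genes had at least 1, giving 9 promoters for Edn1, Vegfa, Pdgfa, Igf1, F13a1 and Plaur. They were searched on both strands for a STAT6-type motif (TTC and GAA with 4 bases between them), because IL-4 signals through STAT6, for 2 NF-kB types of 10 letters each and an AP-1 type (TGANTCA), because LPS activates both, for a HIF type (ACGTG), and for a TATA box (TATAAA). These letters were present in 5.85%, 0.36%, 1.53%, 6.75%, 16.6% and 12.4% of the 32851 promoters of the table. The windows of the 10 genes held 4 matches. The STAT6-type match was in Edn1, which is shown for it, although the change of Edn1 after 24 h of IL-4 alone was not called. The match starts 185 bases before the RefSeq start. The stretch shown, chr13:42301281-42301310 on the plus strand, lies inside the locus the authors' tables give for Edn1, and capitals mark the match.

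Edn1: gtgactttgcTTCTGGAGAAactcttgatt

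Plaur and Vegfa moved in opposite directions under both agents, and their windows are shown for that contrast. The Plaur window, chr7:24462233-24462482 on the plus strand, held an AP-1-type match that starts 69 bases before the start and is in capitals. The Vegfa window, chr17:46032378-46032627 on the minus strand, held none of the motifs searched. The HIF-type letters were found before a second Vegfa start, at 46025163, and an AP-1-type match before an Igf1 start, at 87861111. Both of these windows lie inside the locus listed for the gene, so their letters are part of the gene itself. A match is a description of letters and not a bound site.

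Plaur: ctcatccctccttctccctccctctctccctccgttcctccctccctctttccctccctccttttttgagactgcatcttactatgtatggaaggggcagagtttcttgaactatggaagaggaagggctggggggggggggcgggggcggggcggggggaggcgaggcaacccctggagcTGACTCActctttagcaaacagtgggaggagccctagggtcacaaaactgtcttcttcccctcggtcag

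Vegfa: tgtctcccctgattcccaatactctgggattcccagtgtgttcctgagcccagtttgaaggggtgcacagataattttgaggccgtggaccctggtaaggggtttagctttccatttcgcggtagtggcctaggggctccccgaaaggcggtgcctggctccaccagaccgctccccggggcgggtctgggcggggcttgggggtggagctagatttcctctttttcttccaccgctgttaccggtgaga

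Vegfa (chromosome 17, 46016993 to 46032377, minus strand) encodes the vascular endothelial growth factor that drives the sprouting of vessels. Both agents lowered it. Its level was 16.2, 6.30 and 6.60 FPKM in the controls, 4.18, 1.48 and 2.06 FPKM in IL-4, 3.4, 1.43 and 1.56 FPKM in LPS, and 0.475, 0.21 and 0.148 FPKM in IL-4+LPS. The control samples stood above all treated ones and the IL-4+LPS samples below all others, while IL-4 and LPS overlapped. The log2 fold change of Vegfa with IL-4 was -1.53 (its standard error 0.372, adjusted p = 0.00876) and that with LPS was -1.71 (adjusted p = 0.00166). LPS after IL-4 gave a further -1.42 (adjusted p = 0.00549), and the mean ratio of control to IL-4+LPS was 34.9 in FPKM. The LPS responses with and without IL-4 differed by 0.29 (95% interval -0.88 to 1.45, adjusted p = 0.798). IL-4+LPS lay below LPS by -1.25 (adjusted p = 0.0273), a call lost without LPS replicate 1 (-0.97, adjusted p = 0.0948), IL-4+LPS replicate 2 (-1.21, adjusted p = 0.0745) or IL-4+LPS replicate 3 (-1.17, adjusted p = 0.0806). IL-4 and LPS did not differ from each other beyond their spread (LPS minus IL-4 -0.18, 95% interval -0.999 to 0.648). In all 4 groups replicate 1 was the highest of the 3.

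Pdgfa (chromosome 5, 138976972 to 138994953, minus strand) and Pdgfb (chromosome 15, 79995876 to 80014808, minus strand) encode the A and B chains of platelet-derived growth factor, a mitogen for fibroblasts and for the smooth muscle and pericytes of vessel walls. The 2 chains went apart. Pdgfa stood at 5.21, 8.55 and 8.69 FPKM in the controls, 14.6, 22.0 and 22.8 FPKM in IL-4, 13.2, 22.1 and 17.9 FPKM in LPS, and 10.6, 18.5 and 15.4 FPKM in IL-4+LPS. All 9 treated samples lay above the 3 controls, and the treated groups overlapped. Pdgfa rose by 1.30 (standard error 0.263, adjusted p = 0.00329) with IL-4 and by 1.14 (adjusted p = 0.00239) with LPS.

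LPS given after IL-4 did not raise Pdgfa further. The change was -0.40 (95% interval -0.98 to 0.18, adjusted p = 0.189), and IL-4+LPS was the lower of the pair in all 3 replicate numbers. The LPS response after IL-4 lay below that without it by a log2 difference of -1.54 (standard error 0.372, adjusted p = 0.0278). This call was lost in 6 of the 12 fits that left out 1 sample, those without control replicate 1, IL-4 replicates 2 or 3, LPS replicates 2 or 3, or IL-4+LPS replicate 3. Over all 12 fits the estimate ran from -1.74 to -1.33, with an adjusted p of up to 0.0755. The exons of Pdgfa share 26.1% of their bases with an antisense gene, and the libraries did not keep strand, so fragments of the pair cannot be told apart. For Edn1, Thbs1, Fn1 and F13a1 such antisense overlap covered 1.1% to 3.42% of the exon bases.

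Pdgfb stood at 27.0, 43.3 and 36.7 FPKM in the controls, 22.9, 26.3 and 27.5 FPKM in IL-4, 3.56, 7.50 and 6.17 FPKM in LPS, and 5.54, 5.18 and 6.19 FPKM in IL-4+LPS. All 6 samples with LPS lay below all 6 without it, with a mean ratio of control to LPS of 6.21 in FPKM. Pdgfb fell by 2.46 (standard error 0.220, adjusted p = 2.8e-06) with LPS and by 2.0 (adjusted p = 1.55e-05) with LPS after IL-4, beyond the shift of the whole table. The IL-4 change was -0.44 (95% interval -0.93 to 0.05, adjusted p = 0.145), with overlapping groups. In IL-4+LPS and LPS the levels were 5.64 ± 0.511 and 5.74 ± 2.01 FPKM (SD, n = 3), a difference of 0.02 on the log2 scale (95% interval -0.47 to 0.51). In the controls Pdgfb was the more abundant chain by level (35.6 against 7.48 FPKM), and in LPS Pdgfa was (17.7 against 5.74 FPKM).

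Igf1 (chromosome 10, 87859056 to 87937047, plus strand) encodes insulin-like growth factor 1, a growth factor that acts on muscle, bone and many other tissues. It had the highest level of the 10 genes in each of the 12 samples. It stood at 311, 343 and 345 FPKM in the controls, 536, 562 and 565 FPKM in IL-4, 230.0, 275 and 255 FPKM in LPS, and 496, 529 and 521 FPKM in IL-4+LPS. No groups overlapped, and the order was LPS, control, IL-4+LPS, IL-4. IL-4 raised Igf1 by 0.74 (standard error 0.075, adjusted p = 3.66e-05), and IL-4+LPS lay above LPS by 1.03 (adjusted p = 3.73e-06), a ratio of 2.04 in mean FPKM. The LPS change was -0.40 (adjusted p = 0.000632), about that of the median row (-0.44), and it was -0.03 with median scaling (adjusted p = 0.779) and -0.63 with quantile normalization (adjusted p = 1.55e-05). After IL-4 the LPS change was -0.11 (adjusted p = 0.22), and it was called in opposite directions with median scaling (0.26, adjusted p = 0.0148) and quantile normalization (-0.38, adjusted p = 0.000809). Igf1 made up 75.0% of the summed FPKM of the 10 genes in IL-4 replicate 1 and 42.8% in IL-4+LPS replicate 2, where Edn1 and Plaur had taken larger shares.

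Thbs1 (chromosome 2, 118111922 to 118127133, plus strand) encodes thrombospondin-1, a matrix glycoprotein that restrains vessel growth and activates latent TGF-beta. It had the largest decrease of the 10 genes with IL-4. Thbs1 stood at 42.5, 20.1 and 27.9 FPKM in the controls, 1.32, 0.51 and 0.486 FPKM in IL-4, 8.53, 17.2 and 14.8 FPKM in LPS, and 4.0, 4.84 and 4.20 FPKM in IL-4+LPS. No groups overlapped, and the order from low to high was IL-4, IL-4+LPS, LPS and control, each step past the threshold. The IL-4 change was -4.11 (standard error 0.296, adjusted p = 3.37e-06), which ranked 27 by size among all rows.

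LPS moved Thbs1 in opposite directions without and after IL-4. Without IL-4 it fell by 1.09 (standard error 0.296, adjusted p = 0.00641), lower in all 3 replicate numbers. After IL-4 it rose by 1.62 (adjusted p = 0.000564), higher in all 3. The difference of these responses was 2.71 (standard error 0.419, 95% interval 1.79 to 3.64, adjusted p = 0.00278), and the call held in each of the 12 fits that left out 1 sample. In FPKM the fall was 16.6 and the gain was 3.58, so IL-4+LPS still lay below LPS (-1.39, adjusted p = 0.00505). With median scaling the change without IL-4 was -0.74 (adjusted p = 0.0531), short of the threshold, and with replicates 2 and 3 only it was -0.54 (adjusted p = 0.0134).

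**Figure D3:**
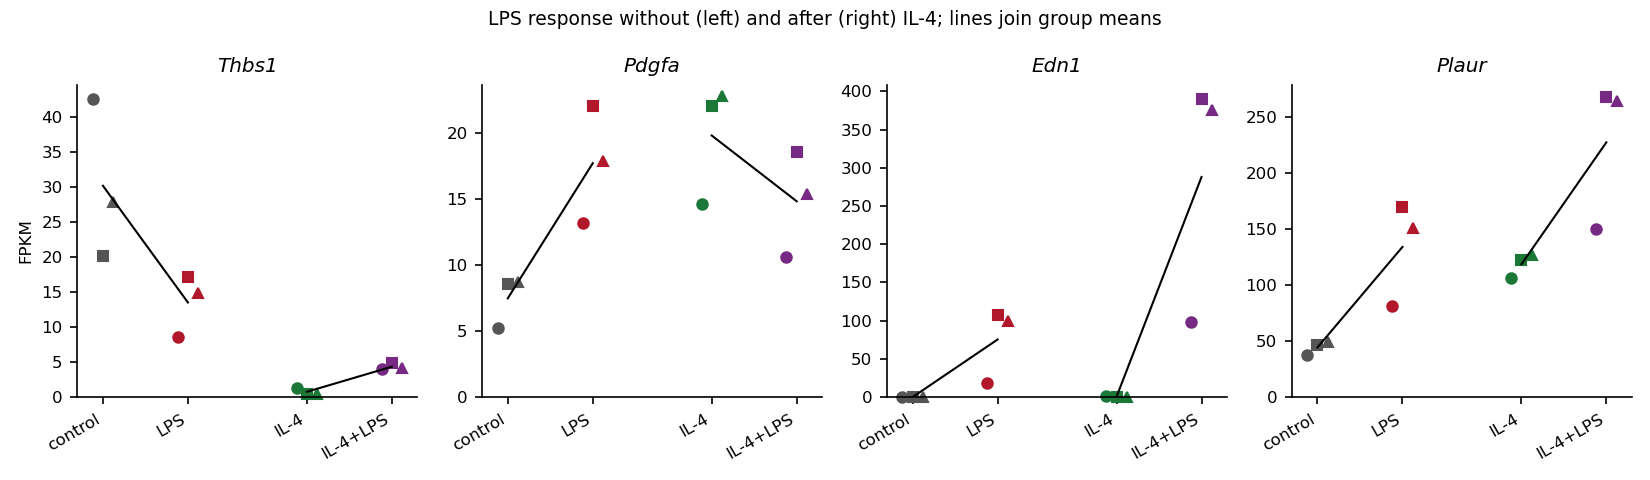
FPKM (vertical axis, linear, from 0) of 4 genes in control, LPS, IL-4 and IL-4+LPS, with a symbol for each replicate and lines joining the mean of each LPS group to the mean of its counterpart without LPS. The lines of Thbs1 and Pdgfa slope in opposite directions without and after IL-4, while those of Edn1 and Plaur rise in both.

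Fn1 (chromosome 1, 71585473 to 71653234, minus strand) encodes fibronectin, an adhesive glycoprotein of plasma and matrix on which cells migrate. It was close to absent without IL-4. Its level was 0.182, 0.306 and 0.236 FPKM in the controls, 20.8, 19.3 and 18.4 FPKM in IL-4, 0.191, 0.397 and 0.242 FPKM in LPS, and 18.4, 17.2 and 18.0 FPKM in IL-4+LPS. The 6 samples with IL-4 stood far above the 6 without it, and the groups within each set overlapped. The IL-4 change was 4.05 (standard error 0.083, adjusted p = 3.69e-10), which ranked 28 by size among all rows, and IL-4+LPS exceeded LPS by 3.89 (adjusted p = 7.42e-10). The mean ratio of IL-4 to control was 80.9 in FPKM. LPS gave 0.04 (95% interval -0.15 to 0.22) without IL-4 and -0.12 (95% interval -0.30 to 0.06) after it, with no call. The latter turned to 0.23 with median scaling (adjusted p = 0.0382). Fibroblasts, a known source of fibronectin, were near 0 by their 8 markers, whose summed level was 0.124 to 0.426 FPKM over the 12 samples.

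F13a1 (chromosome 13, 36867178 to 37050244, minus strand) encodes the catalytic A subunit of coagulation factor XIII, the transglutaminase that cross-links fibrin. It was lower with IL-4. Its level was 14.7, 12.7 and 10 FPKM in the controls, 5.47, 3.02 and 2.83 FPKM in IL-4, 14.3, 9.20 and 6.99 FPKM in LPS, and 4.36, 3.02 and 2.24 FPKM in IL-4+LPS. Every sample with IL-4 lay below every sample without it, while control and LPS overlapped, as did IL-4 and IL-4+LPS. The IL-4 change was -1.52 (standard error 0.282, adjusted p = 0.00196), and IL-4+LPS lay below LPS by -1.39 (adjusted p = 0.00392). LPS gave -0.31 (95% interval -0.93 to 0.32) without IL-4 and -0.17 (95% interval -0.80 to 0.45) after it. Both turned positive and stayed uncalled with median scaling (0.03 and 0.11).

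Platelets and megakaryocytes also carry factor XIII and thrombospondin-1, and 3 of their 7 markers passed the filter. Of these Pf4 was lower with IL-4 (-1.85, adjusted p = 1.55e-06), as Thbs1 and F13a1 were, while Ppbp (-0.80, adjusted p = 0.332) and Itga2b (-0.36, adjusted p = 0.419) were not called. The summed level of the 7 was 304 to 443 FPKM in the controls, 97.8 to 108 FPKM in IL-4, 479 to 502 FPKM in LPS and 143 to 166 FPKM in IL-4+LPS, nearly all of it Pf4, at 94.8 to 499.8 FPKM. With LPS alone it was higher than in the controls, where Thbs1 fell and F13a1 was not called. The markers Gp1bb, Gp9 and Gp6 stayed below 1 FPKM in every sample, and Itga2b reached no more than 1.06 FPKM. The neutrophil markers Ltf and Ngp and 5 macrophage markers were lower with IL-4 as well, as given above, and the part of any of these cells in the fall of Thbs1 and F13a1 was not tested.

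Plaur (chromosome 7, 24462500 to 24475873, plus strand) encodes the receptor of urokinase, which holds that protease at the cell surface. Both agents raised it. Its level was 38.0, 46.3 and 48.9 FPKM in the controls, 106, 122.7 and 127 FPKM in IL-4, 81.4, 169.7 and 151 FPKM in LPS, and 150.4, 267 and 264 FPKM in IL-4+LPS. All 9 treated samples stood above the controls, IL-4 and LPS overlapped, and IL-4+LPS overlapped only with LPS. Plaur rose by 1.40 (standard error 0.280, adjusted p = 0.00306) with IL-4 and by 1.51 (adjusted p = 0.000562) with LPS, and IL-4 and LPS did not differ beyond their spread (0.11, 95% interval -0.51 to 0.73).

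LPS after IL-4 raised Plaur by 0.89 (standard error 0.280, adjusted p = 0.0147), a call lost without IL-4+LPS replicate 2 (0.75, adjusted p = 0.0573) or replicate 3 (0.76, adjusted p = 0.0562). IL-4+LPS exceeded LPS by 0.78, short of the threshold (95% interval 0.16 to 1.40, adjusted p = 0.0583). That comparison passed it without LPS replicate 2 (0.98, adjusted p = 0.0359) and without IL-4+LPS replicate 1 (1.05, adjusted p = 0.0131). The LPS responses with and without IL-4 differed by -0.62 (95% interval -1.50 to 0.26), with no call. With replicates 2 and 3 only that difference was -0.64 and was called (adjusted p = 0.00289).

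Replicate 1 was offset from replicates 2 and 3, in some genes alike in all groups and in others with a sign that changed between groups. It was the highest of 3 in all 4 groups for Vegfa and F13a1 and the lowest in all 4 for Pdgfa, Igf1 and Plaur. Over all rows, 17.0% had replicate 1 highest in every group and 15.5% had it lowest. For Thbs1 it lay above the mean of the others in control (0.82) and IL-4 (0.63) and below it in LPS (-0.83) and IL-4+LPS (-0.14), and the offsets of Hbegf, Edn1 and Fn1 also had both signs. The offsets farthest from 0 were those of Edn1, where replicate 1 lay below the mean of the others by -2.42 among LPS samples and -1.95 among IL-4+LPS samples on the log2 scale. The replicate 1 samples were among the shallowest, and the part of depth in these offsets was not tested.

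**Figure D4:**
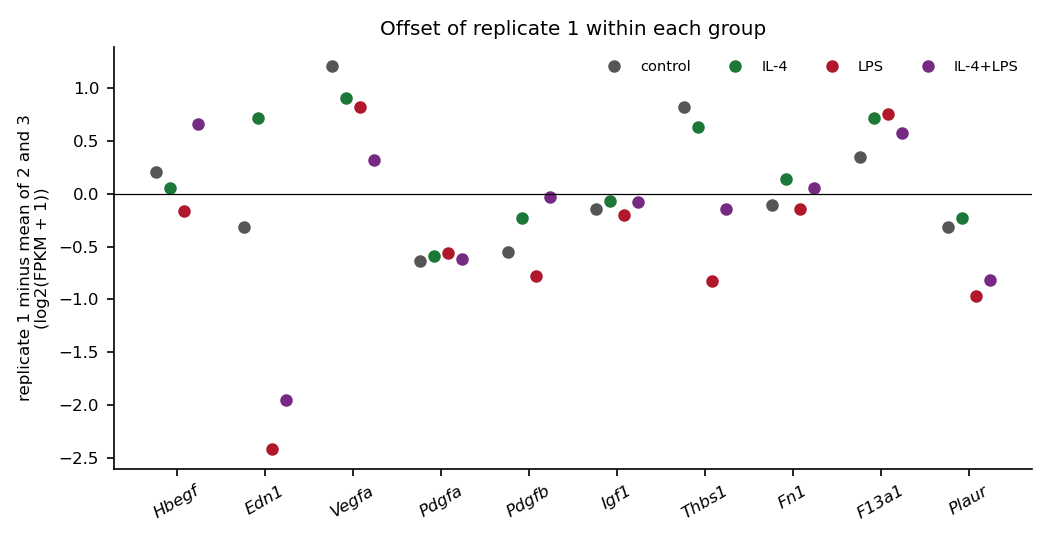
For each gene (horizontal axis) and group (colour), the vertical axis gives log2(FPKM + 1) of replicate 1 minus the mean of replicates 2 and 3. Vegfa and F13a1 lie above 0 in all 4 groups, Pdgfa, Igf1 and Plaur below 0, and Edn1 in LPS and IL-4+LPS is the farthest from 0.

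Rows whose pattern was most like that of each gene were taken by Pearson r of log2(FPKM + 1) over the 12 samples, as a description. For Fn1 these were Ocstamp (r = 0.999) and Ear11 (0.999), and for Hbegf Tppp3 (0.969) and Itgad (0.968). For Edn1 they were Nos2, the inducible nitric oxide synthase (0.996), and Usb1 (0.996), for Plaur Ier3 (0.976) and Slc7a2 (0.974), and for Igf1 Psmd8 (0.994) and Sc4mol (0.991). For Vegfa they were Usp11 (0.986) and Zfp236 (0.985), for Pdgfb Hgsnat (0.996) and Haus4 (0.992), and for F13a1 Aif1 (0.976). Pdgfa and Thbs1 had weaker nearest rows, Ctnnb1 (0.943) and Rad23b (0.943) for the first and the transcription factor gene Maf (0.962) and Pogz (0.945) for the second. Among the 10 genes themselves the closest pairs were Fn1 with Hbegf (0.952) and Fn1 with Igf1 (0.941). The 12 points share the 4 treatments and the replicate 1 offset, so high values are frequent.

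The partners of these proteins were taken from 6 lists. Beside the counts below stand the shares over all rows. The filter also admits genes that reach 1 FPKM only in a group where they are high. Counts of raised genes, in the lists and over all rows, include such genes. Vcan and Serpinb2, named below, passed it only through samples with LPS. LPS raised 16.9% and lowered 57.7% of all rows, and IL-4 raised 16.0% and lowered 21.0%. Among other growth factors, 9 of 31 listed genes were tested. LPS raised 2 and lowered 6 of them (median -0.47), and IL-4 raised 1 and lowered 1 (median -0.09). The all-row medians were -0.44 and -0.05, as given above. With quantile normalization, and also with median scaling, LPS raised 2 and lowered 4. The 2 that rose with LPS were Nrg1, an EGF family ligand (1.22, adjusted p = 6.92e-07), and Inhba, a subunit of activin (0.87, adjusted p = 0.00059). Both passed the filter only through samples with LPS, so their rise is not independent of their being tested. Nrg1 reached at most 0.0983 FPKM in the controls and 0.0503 FPKM in IL-4. Inhba reached at most 0.0627 FPKM in the controls and 0.126 FPKM in IL-4. Vegfb (-1.49, adjusted p = 9.32e-05) and Hgf, a mitogen of epithelium (-1.54, adjusted p = 0.00127, and -0.995 with quantile normalization), were among those that fell. With IL-4, Mdk rose (0.52, adjusted p = 0.0183) and Osm fell (-1.09, adjusted p = 0.00237), and the call of Mdk was lost without control replicate 1 or IL-4 replicate 1 (adjusted p up to 0.0629). Mdk passed the filter only through IL-4 samples, at 0.972 to 1.61 FPKM against 0.424 to 0.642 FPKM in the controls.

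Among growth factor receptors and binding proteins, 15 of 26 were tested, of which IL-4 raised 3 and lowered 5 (median -0.16) and LPS raised 6 and lowered 5 (median 0.01). LPS raised 9 and lowered 5 of the 15 with quantile normalization, and raised 8 and lowered 5 with median scaling. Flt1, a receptor for VEGF, went from 0.0755 ± 0.0122 to 9.11 ± 2.72 FPKM (SD, n = 3) with IL-4 and stood at 23.1 ± 4.15 FPKM in IL-4+LPS, while Vegfa itself fell. Igfbp4, a binding protein for IGF, went from 113.9 ± 7.25 to 10.6 ± 0.519 FPKM with IL-4, while Igf1 rose. Cd9, a tetraspanin that associates with the HB-EGF precursor, rose with IL-4 by 1.19 (adjusted p = 3.08e-06).

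Ednrb, a receptor for endothelins, rose with LPS as Edn1 did (2.34, adjusted p = 5.78e-07) and fell with IL-4 (-1.13, adjusted p = 0.000499). Control cells had 8.48 ± 1.18 FPKM, IL-4 cells 3.35 ± 0.562, LPS cells 46.7 ± 3.29 and IL-4+LPS cells 11.5 ± 3.09 (SD, n = 3). IL-4+LPS lay below LPS by -1.96 (adjusted p = 1.13e-05). Ece1, the converting enzyme of the endothelin precursor, had an LPS response that was higher after IL-4 by 0.85 (adjusted p = 0.00386). Nrp1, a co-receptor of VEGF, fell with LPS by 1.92 (adjusted p = 2.32e-06), and Met, the receptor of HGF, rose by 2.41 (adjusted p = 5.61e-05). Nrp2 of the same list went against Nrp1, from 60.2 ± 0.736 FPKM in the controls to 218 ± 9.14 FPKM in LPS (SD, n = 3). Kdr, also in this list, rose with LPS by 1.11 (adjusted p = 0.000132).

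Of 9 tested sheddases and convertases among 12 listed, LPS raised 3 and lowered 3 (median 0.257). Adam17, the main sheddase of EGF family precursors, rose by 0.85 (adjusted p = 0.000115), and Rhbdf2, which guides its maturation, rose by 2.32 (adjusted p = 1.92e-07). Adam15 and Adam10 fell by 0.93 and 0.74, and by 0.57 and 0.38 with median scaling. IL-4 raised Adam8 (0.62, adjusted p = 0.000861) and Furin (0.55, adjusted p = 0.0366) (median of the 9 genes 0.15) and lowered none of them, and the call of Furin was lost without control replicates 1 or 3 or IL-4 replicates 2 or 3 (adjusted p up to 0.121).

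Of 13 tested matrix proteins and cross-linkers among 36 listed, LPS raised 6 and lowered 4 (median 0.255), and IL-4 raised 1 and lowered 3 (median -0.23). Vcan, the proteoglycan versican, rose with LPS by 3.30 (adjusted p = 3.8e-05), and Tgm2, a tissue transglutaminase, by 2.68 (adjusted p = 9.37e-06). Mfge8, which bridges integrins to dying cells, rose with IL-4 (0.63, adjusted p = 0.000194) and fell with LPS (-0.69, adjusted p = 2.11e-05, and -0.33 with median scaling). With median scaling LPS raised 8 and lowered 2 of these 13, and raised 6 and lowered 2 of the 9 sheddases and convertases.

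Of 16 tested genes of coagulation and the plasminogen system among 22 listed, LPS raised 9 and lowered 4 (median 0.63), and IL-4 raised 6 and lowered 1 (median 0.11). Plau, the protease that Plaur binds, moved against its receptor with LPS and fell from 105 ± 7.52 to 8.21 ± 4.76 FPKM (SD, n = 3). Serpinb2, an inhibitor of that protease, rose by 4.90 (adjusted p = 1.08e-06). Serpinb2 in IL-4+LPS lay below its LPS level (-2.30, adjusted p = 0.00118). IL-4 raised the coagulation factor genes F10 (3.06, adjusted p = 2.65e-05) and F7 (2.35, adjusted p = 4.67e-05), while F13a1 fell.

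All 12 listed receptors for matrix and thrombospondin were tested, of which LPS raised 8 and lowered 2 (median 1.13) and IL-4 raised 5 and lowered 1 (median 0.256). Sdc4, a proteoglycan that binds fibronectin, rose with LPS by 4.98 (adjusted p = 2.66e-08). Itgb3, a subunit of integrins that bind fibronectin, rose with IL-4 by 2.11 (adjusted p = 2.61e-06), as Fn1 did, and fell with LPS by 1.37 (adjusted p = 1.04e-05), or by 0.80 with quantile normalization. Cd36, a receptor for thrombospondin-1, fell with LPS by 0.77 (adjusted p = 0.000463), and by 0.40 with median scaling. Sdc1 in IL-4+LPS lay below its LPS level (-1.55, adjusted p = 0.000388).

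**Figure D5:**
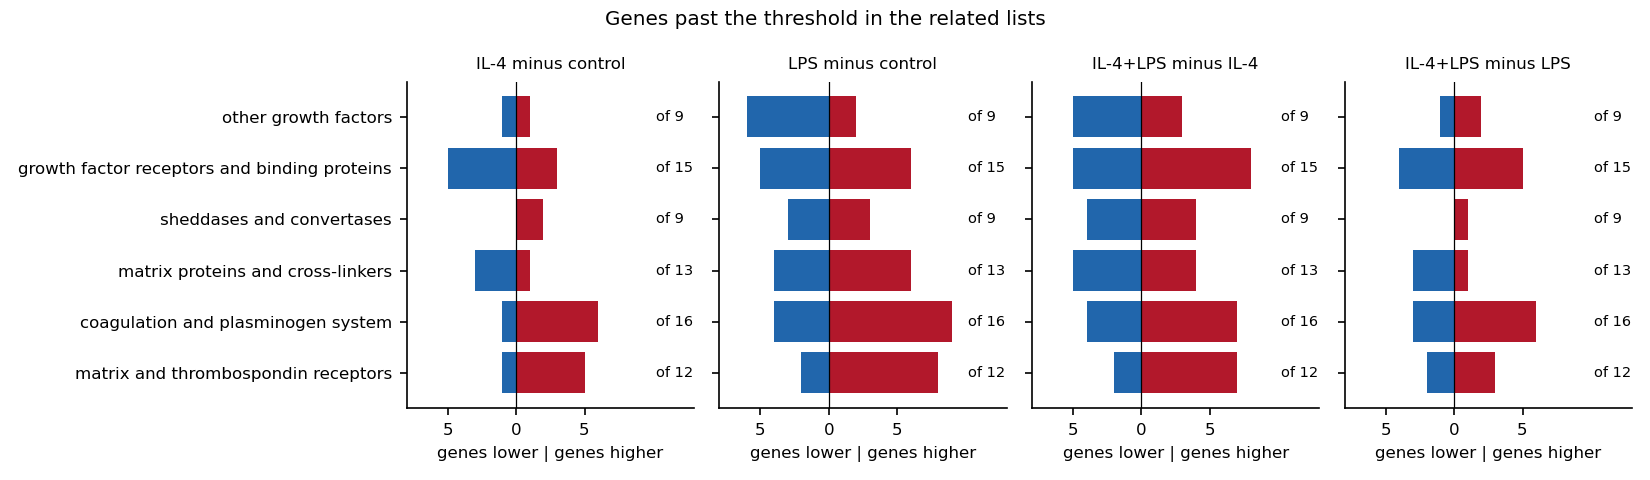
Bars count the genes of each list that passed the threshold, higher to the right in red and lower to the left in blue, in 4 comparisons, with the number tested at the right. In LPS minus control the coagulation list has 9 higher and 4 lower of 16, and the list of other growth factors 2 higher and 6 lower of 9.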

How the data were processed

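Messenger RNA was measured by RNA-seq in 12 BMDM samples, 3 per group. The authors prepared poly-A selected TruSeq libraries, sequenced them as paired reads, mapped them with TopHat2 2.0.7 to mm10 and computed FPKM values with Cufflinks 2.0.2, and the deposited tables hold 1 FPKM column per sample. The annotation used was not given in the sources used here. Since FPKM is a share of what was mapped in each sample, genes also shift when the RNA composition changes. Fragment counts were not analysed here, so absolute depth was unknown. The study states 3 individual animals from fewer than 3 independent experiments, without tying animals or experiments to replicate numbers.

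Rows with at least 1 FPKM in at least 1 of 12 samples were kept (11191 of 23847), transformed to log2(FPKM + 1) and fitted with limma 3.58.1 in R 4.3.3 as group means with an intensity trend. P-values were adjusted by Benjamini-Hochberg within each contrast at a threshold of 0.05, and the script was tested on simulated data. The 10 genes, the gene lists and the tests were chosen with earlier results of these data known. From each list up to 2 genes per direction with the largest change among calls of the same sign in replicate numbers 1, 2 and 3 could be named in the main contrasts. Not all of these, nor all nearest-pattern genes, are reported here, and contrasts of IL-4+LPS with LPS are given for few of them. Alternatives were a pseudocount of 0.1, no filter, a filter of 3 samples, quantile normalization, median scaling, no trend, replicates 2 and 3 only, the replicate number as a block, only the groups compared, and each sample left out. Promoters came from RefSeq (GRCm38.p6). Figures were drawn with matplotlib 3.10.9.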

Additional observations from a re-analysis of the deposited data

Results flagged for a closer look

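The LPS response of Thbs1 differed with and without IL-4, by a test of the difference itself. The log2 difference was 2.71 (limma adjusted p = 0.00278), from a fall in all 3 replicate numbers without IL-4 and a rise in all 3 after it. The LPS response of Pdgfa differed as well, with a log2 difference of -1.54 (adjusted p = 0.0278). It was higher with LPS in all 3 replicate numbers without IL-4 and lower in all 3 after it, and its call was lost in 6 of the 12 fits that left out 1 sample (adjusted p up to 0.0755).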

How the results depend on the processing

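For the 10 genes, 1381 of 1458 values under the alternatives kept direction and side of the threshold, 24 lost a call, 20 gained one and 33 changed sign, most of the last for changes near 0. The cause was not tested where a call moved. Median scaling left 2 genes lower with LPS and gave 6 higher with LPS after IL-4. The numbers of the replicates were no proven pairing (deviations of same-numbered samples had r from 0.0024 to 0.386, over 0.1 in 11 of 18 pairs, with 9 of 12 samples closest to one of their own number). A replicate block, as a fit by number, gave 4 genes lower with LPS after IL-4 and 2 with a higher response to LPS after IL-4. It newly called F13a1 with LPS (-0.31), Pdgfb with IL-4 (-0.44), Pdgfa and Igf1 with LPS after IL-4 (-0.40 and -0.11), Pdgfa and Plaur in IL-4+LPS against LPS (-0.25 and 0.78) and Igf1 in the difference of responses (0.29). Over all rows the block moved the number lower in IL-4+LPS against LPS from 1771 to 2667, and the differing responses from 512 higher and 518 lower to 1145 and 1095. Replicates 2 and 3 only gave 3 genes with a higher response after IL-4 (Thbs1, Edn1 and Igf1) and 2 with a lower one (Pdgfa and Plaur), and over all rows 2881 lower in IL-4+LPS against LPS and 1459 and 1393 differing responses. Leaving out 1 sample gave 0 to 1 genes with a lower response, 2 to 3 higher with LPS after IL-4, and 3 to 5 higher and 2 to 3 lower in IL-4+LPS against LPS. Without IL-4 replicate 3 or LPS replicate 3 the differing responses over all rows were 324 and 307 higher and 332 and 333 lower. Quantile normalization and median scaling moved the rows higher with LPS from 1887 to 2903 and 2966, and those lower with LPS after IL-4 from 6474 to 4173 and 4057, with 2629 higher under median scaling against 1682. Against control, IL-4+LPS then had 3112 and 3299 rows higher in place of 2001, and 4201 lower in place of 6311 with quantile normalization.

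Sign changes with quantile normalization and median scaling were Hbegf with LPS (0.23 and 0.029), F13a1 with LPS (0.039 and 0.031), Fn1 and F13a1 with LPS after IL-4 (0.083 and 0.23, 0.33 and 0.11), and Vegfa and Pdgfa in LPS against IL-4 (0.26 and 0.057, 0.043 and 0.17). Median scaling alone turned Igf1 with LPS after IL-4 (0.26) and Fn1 in the difference of responses (0.11), and a pseudocount of 0.1 turned Vegfa there (-0.69). Replicates 2 and 3 only turned Hbegf with LPS (0.05), with LPS after IL-4 (-0.009) and in the difference of responses (-0.059), and Pdgfb in IL-4+LPS against LPS (-0.23). Leaving out 1 sample turned the signs of uncalled changes of Fn1 with LPS (range -0.028 to 0.087), Hbegf and F13a1 with LPS after IL-4 (-0.027 to 0.35 and -0.36 to 0.068), Pdgfb in IL-4+LPS against LPS (-0.24 to 0.21), Vegfa, Pdgfa and Plaur in LPS against IL-4 (-0.45 to 0.13, -0.35 to 0.03 and -0.091 to 0.43), and Vegfa and F13a1 in the difference of responses (-0.12 to 0.59 and -0.08 to 0.39). A pseudocount of 0.1 enlarged the called changes of Hbegf (IL-4 against control from 1.07 to 2.0) and Vegfa (LPS after IL-4 from -1.42 to -2.79). Depth limits the low genes most, Edn1 without LPS, Fn1 and Hbegf without IL-4, and Vegfa in IL-4+LPS.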
